A study of Homo sapiens with 6 samples.

Results

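Teneurins and latrophilins are cell-surface proteins that bind each other across the gap between neighbouring cells. The 6 genes described here are the teneurins TENM2, TENM3 and TENM4 and the latrophilins ADGRL1, ADGRL2 and ADGRL3, taken by symbol from a table of 29816 genes whatever their level. They were picked because TENM4 and ADGRL2 were close to absent in control-transfected cells and higher in the other transfected group. The levels of the 6 genes in this contrast are therefore given as a description, without a test. The cells were KYSE-150, a long-established line from a human squamous carcinoma of the esophagus, and polyA-selected RNA was sequenced in 6 libraries. In 3 libraries the cells had been transfected with si-NC, a negative control small interfering RNA, and in the other 3 with si-circTMEM45A, which is directed at circTMEM45A, a circular transcript that carries the name of its gene TMEM45A. All 6 libraries share the cell line and the transfection, and no source used here gives the dose, the time or how many different small interfering RNAs were used. The labels do not say that replicates came from separate cultures, so SDs and p-values reflect differences among these 6 libraries alone and may be technical. The groups are also called control and treated below.

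Teneurins are large single-pass membrane proteins with epidermal growth factor-like repeats and a barrel-like extracellular shell. Latrophilins are adhesion G protein-coupled receptors, a class that cuts its own extracellular part from its membrane part and can signal through heterotrimeric G proteins. Teneurin on a cell and latrophilin on its neighbour form an adhesive pair, best known from synapses, where latrophilins also bind FLRT proteins, which in turn bind UNC5 receptors.

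The libraries held 16636248 to 17323964 gene-assigned reads. Values are FPKM, in which fragments are divided by gene length and by library size; this allows levels of different genes to be compared per length. The host gene TMEM45A had 3.12 ± 0.191 FPKM in the control group and 2.12 ± 0.215 in the other (SD, n = 3 each), without overlap (limma adjusted p = 0.0167). PolyA selection favours its linear transcript, so this value does not check the circular one. All 8 squamous epithelial markers were found, with a summed FPKM of 1210 to 1341 with si-NC and 1033 to 1151 with si-circTMEM45A. Of 8 neuronal markers, 6 were found, with a summed FPKM of 4.42 to 4.77 and 6.49 to 6.89. Most of that sum came from SYT1 and MAP2, and both were higher without overlap, as was TUBB3 (0.214 to 0.285 with si-NC and 0.315 to 0.521 with si-circTMEM45A). MAP2 was called higher (limma adjusted p = 0.00600) and SYT1 was not (limma adjusted p = 0.114). SYP lay between 0.244 and 0.373 with overlap, RBFOX3 was at or below 0.0657 and NEFL was at 0 in 5 of 6 libraries. Of 7 squamous markers tested, KRT17 was called higher and KRT5, KRT14 and TP63 lower. The part of these shifts in the values below was not tested. The summed markers of fibroblasts (1.96 to 2.38), endothelium (0.786 to 1.41) and immune cells (0.477 to 0.905) were low in both groups, with PTPRC at or below 0.0131 in every library.

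TENM4, a teneurin known for a role in myelination by oligodendrocytes, had an FPKM of 0.0254, 0.0184 and 0.0217 in the si-NC libraries. It had 0.278, 0.301 and 0.286 in the si-circTMEM45A libraries. The 2 groups were far apart and the replicates of each lay close together. The mean went from 0.0218 ± 0.00348 to 0.288 ± 0.0118 (SD, n = 3 each), a ratio of 13.2. These values rest on 7, 5 and 6 reads with si-NC and on 78, 83 and 81 reads with si-circTMEM45A, so the control level is near the limit of what the depth can resolve, where 1 read is worth 0.00361 to 0.00368 FPKM. In bulk RNA, more cells that express the gene and more RNA per cell cannot be told apart.

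TENM3, which in the nervous system guides the matching of connected regions, was the most abundant teneurin. Its FPKM was 3.27, 3.06 and 2.79 with si-NC and 4.46, 4.21 and 4.18 with si-circTMEM45A. Each si-circTMEM45A library was above each si-NC library. The means were 3.04 ± 0.244 and 4.28 ± 0.151 (SD, n = 3), a ratio of 1.41 on 566 to 918 reads per library. TENM2, the teneurin first identified as a ligand of ADGRL1, did not separate the groups. Its FPKM was 0.681, 0.817 and 0.604 with si-NC and 0.901, 0.666 and 0.549 with si-circTMEM45A. Both the highest and the lowest of the 6 values belonged to the si-circTMEM45A group, so the groups overlapped in full. The means of 0.7003 ± 0.108 and 0.705 ± 0.179 (SD, n = 3) were closer than the spread within either group, and the ratio of 1.01 lay between 0.867 and 1.12 when single libraries were left out.

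Among the latrophilins, ADGRL2, a receptor found on the receiving side of hippocampal synapses, had an FPKM of 0.0840, 0.0620 and 0.0609 with si-NC. With si-circTMEM45A it had 0.495, 0.451 and 0.395. The groups did not come near each other, and the mean went from 0.0689 ± 0.0130 to 0.447 ± 0.0504 (SD, n = 3), a ratio of 6.48. The reads behind these values were 11, 8 and 8 against 66, 59 and 53.

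ADGRL1, first found as a receptor of the spider toxin alpha-latrotoxin, was the most abundant of the 6 genes in both groups. Its FPKM was 9.90, 9.89 and 10.6 with si-NC and 13.0, 12.7 and 13.8 with si-circTMEM45A. All 3 si-circTMEM45A values were higher than all 3 si-NC values, with means of 10.1 ± 0.398 and 13.2 ± 0.570 (SD, n = 3) and a ratio of 1.30 on 1397 to 2033 reads per library. ADGRL3, which binds FLRT3 and teneurins at excitatory synapses, was low in all libraries. Its FPKM was 0.0761, 0.142 and 0.0633 with si-NC and 0.0956, 0.127 and 0.149 with si-circTMEM45A. The second si-NC library was higher than 2 of the 3 si-circTMEM45A libraries, so the groups overlapped, and the ratio of means of 1.32 rests on 15 to 36 reads per library.

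**Figure D1:**
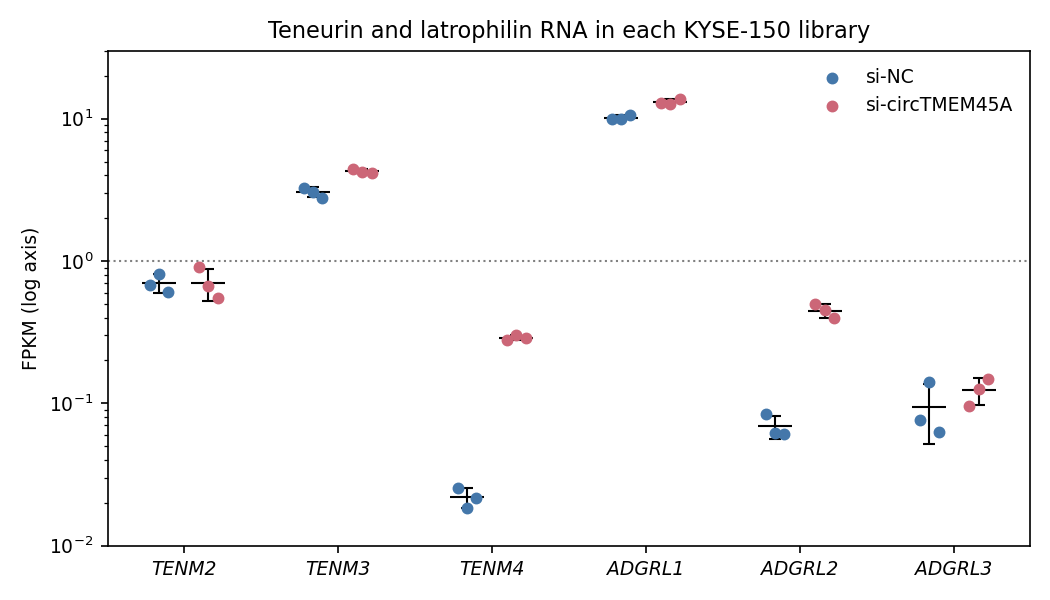
FPKM on a log axis for the 6 genes, 1 point per library, with si-NC in blue and si-circTMEM45A in red; horizontal bars are group means, error bars are SD (n = 3) and the dotted line marks 1 FPKM. TENM4 and ADGRL2 are separated by a wide gap, TENM3 and ADGRL1 by a narrow one, and TENM2 and ADGRL3 overlap.

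As a measure of precision, counting error from the summed reads of each group gave the ratio for TENM4 a 95% exact binomial interval of 8.18 to 22.7, and for ADGRL2 of 4.30 to 10.1. The intervals were 1.33 to 1.5 for TENM3 and 1.25 to 1.35 for ADGRL1. They were 0.874 to 1.16 for TENM2 and 0.953 to 1.85 for ADGRL3. PCR reads are not independent molecules and replicates also differ, so the intervals cover counting error only. With each library left out in turn, the ratio of TENM4 ranged from 12.3 to 14.4 and that of ADGRL2 from 6.12 to 7.27. Both genes were picked on these same values, so the intervals and ranges describe them and support nothing further.

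**Figure D2:**
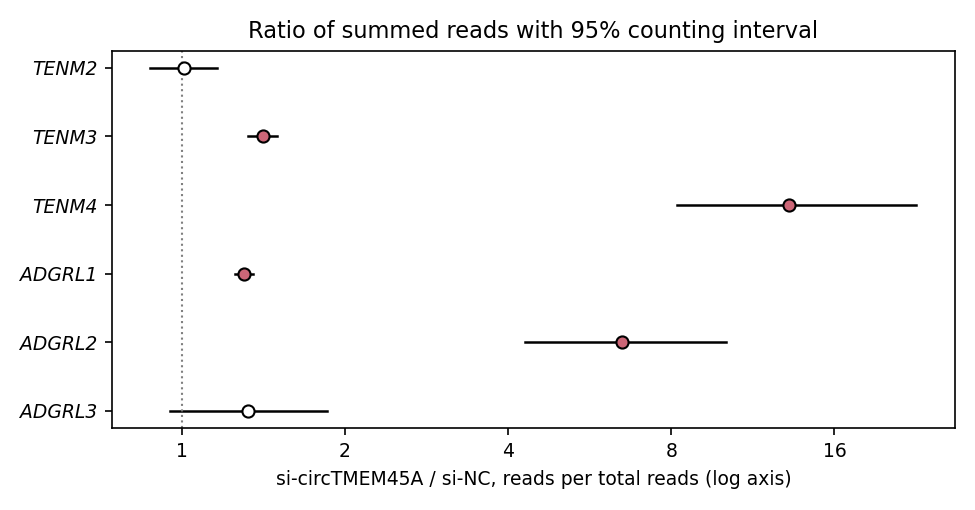
Ratio of reads per total reads, si-circTMEM45A over si-NC, on a log axis for the 6 genes; lines are 95% exact binomial intervals from summed reads, and filled points mark genes whose library values do not overlap between groups. TENM4 at 13.2 and ADGRL2 at 6.48 stand to the right of the other 4 genes.

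The order of levels changed at its low end. With si-NC it ran from ADGRL1 through TENM3, TENM2, ADGRL3 and ADGRL2 down to TENM4, and only ADGRL3 and ADGRL2 had overlapping ranges between neighbours. With si-circTMEM45A it ran from ADGRL1 through TENM3, TENM2, ADGRL2 and TENM4 down to ADGRL3, and no neighbouring pair overlapped. ADGRL1 kept 3.33 times the FPKM of TENM3 with si-NC and 3.08 times with si-circTMEM45A. The summed FPKM of the 3 teneurins was 3.76 ± 0.306 and 5.28 ± 0.321 (SD, n = 3), a ratio of 1.40. TENM3 supplied 80.8% ± 1.99 of it with si-NC and 81.3% ± 2.13 with si-circTMEM45A (SD, n = 3), while the share of TENM4 was 0.582% ± 0.0946 and 5.49% ± 0.484 and that of TENM2 was 18.6% ± 2.08 and 13.3% ± 2.55. The summed FPKM of the 3 latrophilins was 10.3 ± 0.365 and 13.8 ± 0.548 (SD, n = 3), of which ADGRL1 supplied 98.4% ± 0.430 and 95.8% ± 0.327. The share of ADGRL2 was 0.672% ± 0.142 and 3.26% ± 0.464. In absolute FPKM the abundant members differed more: the group means were less than 1 FPKM apart for TENM4 and ADGRL2 and more than 1 FPKM apart for TENM3 and ADGRL1.

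Set against all genes with a mean of at least 5 reads per library, 16732 in number, the ratio of TENM4 ranked 2 and that of ADGRL2 ranked 8, which restates why they were picked. Among the 12609 protein-coding genes of these the ranks were 1 and 4. A ratio of at least 2 was seen for 2.53% of the 16732 genes, TENM4 and ADGRL2 among them. A ratio of at least 5 was seen for 0.114% of the 16732 genes, and for 17 of the 564 genes (3.01%) whose mean was under 0.1 FPKM with si-NC, a set that holds some genes only because they were higher with si-circTMEM45A. ADGRL3 ranked 2104, TENM3 1567, ADGRL1 2256 and TENM2 9272.

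**Figure D3:**
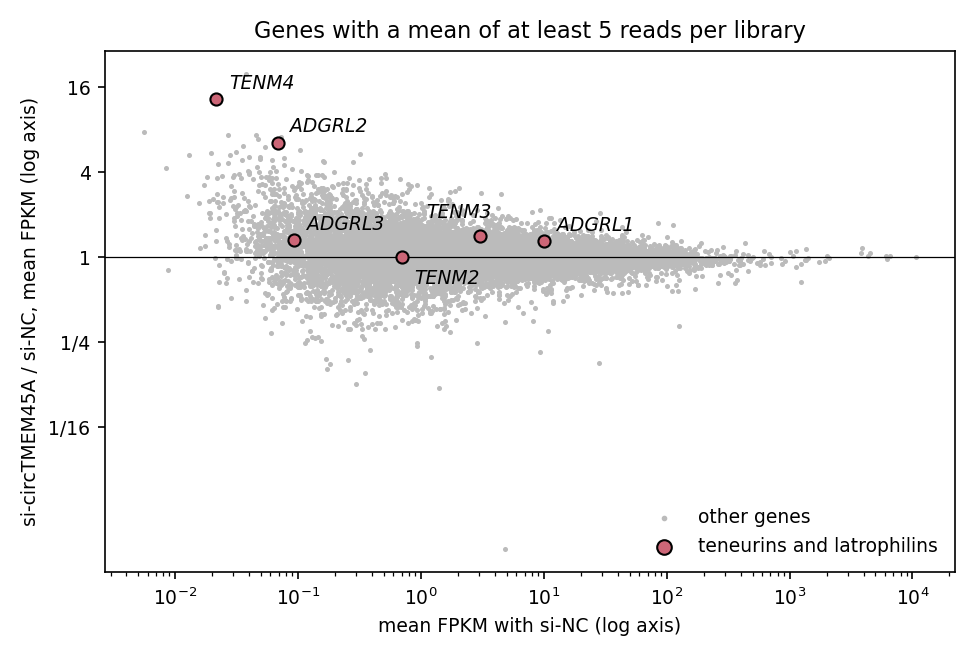
Each grey point is a gene with a mean of at least 5 reads per library, placed by its mean FPKM with si-NC (x, log axis) and the ratio of mean FPKM, si-circTMEM45A over si-NC (y, log axis); the 6 named genes are in red. TENM4 and ADGRL2 lie at the upper left edge, where levels are low and ratios of all genes are more widely spread, and the other 4 lie inside the cloud.

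Calls come from limma on log2(FPKM + 1), for genes that reached 1 FPKM in 3 or more libraries. At an adjusted p of 0.05 it called 18.8% of 12676 genes, 1411 of them higher (11.1%) and 969 lower (7.64%) with si-circTMEM45A, a split that became 1078 and 1206 with median-of-ratios scaling. Only TENM3 and ADGRL1 of the 6 members passed the filter, and no call is given for any member. TENM3, TENM4, ADGRL1 and ADGRL2, 4 of the 6, were higher with no overlap between groups, as were 20.5% of the 16732 genes with a mean of at least 5 reads. The members were chosen from this contrast, so nothing is read from that count. On the log2(FPKM + 1) scale the difference of group means was 0.33 for TENM4 and 0.44 for ADGRL2, close to the 0.39 of TENM3 and 0.35 of ADGRL1, because a pseudocount of 1 exceeds the level of the low genes. With a pseudocount of 0.1 it was 1.67 for TENM4, 1.69 for ADGRL2, 0.48 for TENM3 and 0.38 for ADGRL1.

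The loci are spread over the genome and, with the exception of ADGRL1, very long. In GRCh38, TENM4 lies on chromosome 11 from 78652831 to 79440948 on the minus strand, a span of 788 kb, and ADGRL2 on chromosome 1 from 81306160 to 81992436 on the plus strand, 686 kb. TENM2 spans 979 kb on chromosome 5 (167284799 to 168264157), ADGRL3 877 kb on chromosome 4 (61201258 to 62078335) and TENM3 659 kb on chromosome 4 (182143987 to 182803024), while ADGRL1 on chromosome 19 (14147743 to 14206187) spans 58.4 kb. Of 15606 protein-coding genes in the table, 87 are longer than TENM4 and 123 longer than ADGRL2. TENM2, the longest of the 6, had a ratio of 1.01, against 13.2 for TENM4 and 6.48 for ADGRL2. Any part of gene length in these ratios was not tested.

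Some transcripts that overlap the members are given here, and the others in the table had few reads. At the ADGRL2 locus the table held the pseudogene ARID3BP1, with 5, 3 and 5 reads with si-NC and 11, 3 and 2 with si-circTMEM45A. The pseudogene ST13P20 there had 0, 0 and 2 reads against 3, 0 and 0. Both overlapped between groups. The library protocol names a step that marks the second strand, but no source used here says whether counting used strand, so reads of a gene and of its antisense partner may not be separated. TENM3-AS1 had an FPKM of 0.653 ± 0.0547 with si-NC and 0.655 ± 0.0528 with si-circTMEM45A (SD, n = 3), and ADGRL1-AS1 had 1.08 ± 0.0484 and 1.08 ± 0.215. Both antisense genes overlapped between groups, whereas TENM3 and ADGRL1 did not. TENM2-AS1 had 3, 3 and 5 reads with si-NC and 9, 6 and 8 with si-circTMEM45A, which do not overlap but are few. Inside the TENM4 locus, on the opposite strand, the long noncoding gene ENSG00000255345, chosen after its values were seen, had 23, 20 and 19 reads with si-NC and 18, 14 and 26 with si-circTMEM45A, so the groups overlapped there while TENM4 differed 13.2-fold.

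Neighbours were taken by order along the chromosome, whatever the distance, and IFI44, DDIAS and IGFBP7 below lie megabases away from their member. For ADGRL2, only IFI44 and IFI44L were in the table. Of the 3 nearest protein-coding genes on each side of each member, 36 in all, 29 were in the table and 26 were tested. Of these 4 rose and 2 fell, near the 18.8% called among all tested genes. The groups did not overlap for 12 of the 26, against 39.2% of all tested genes, and the median log2 fold change was -0.014 against 0.028 for all. Near TENM4, the signalling adaptor GAB2 rose from 6.45 ± 0.0431 to 7.90 ± 0.0923 FPKM (SD, n = 3; limma adjusted p = 0.00745, log2 fold change 0.26 ± 0.04 SE), while NARS2, the mitochondrial asparaginyl-tRNA synthetase gene that lies nearest on that side, had 15.2 ± 0.512 and 13.7 ± 0.0689 (limma adjusted p = 0.0516). DDIAS, a gene of the DNA damage response on the other side, fell from 4.87 ± 0.1699 to 3.87 ± 0.237 FPKM (limma adjusted p = 0.0215). Among the neighbours of ADGRL2, the interferon-induced gene IFI44 rose from 2.56 ± 0.405 to 4.00 ± 0.291 FPKM (limma adjusted p = 0.0145). Its relative IFI44L had 9 reads with si-NC and 7 with si-circTMEM45A. WWC1, which lies beside TENM2 and encodes the scaffold KIBRA of the Hippo pathway, rose from 35.4 ± 0.869 to 40.6 ± 1.78 FPKM (limma adjusted p = 0.0234). IGFBP7, a secreted growth factor-binding protein gene next before ADGRL3 in gene order, fell from 28.8 ± 2.09 to 24.0 ± 1.14 FPKM (limma adjusted p = 0.0302). The fourth neighbour that rose was ADGRE5, beside ADGRL1. RARS1, the arginyl-tRNA synthetase gene near TENM2, had the highest level of the neighbours, at 75.9 ± 1.60 and 77.6 ± 2.24 FPKM, and was not called. With 1 library left out, 2 to 5 neighbours were called instead of 6. With a pseudocount of 0.1 or on TPM 7 were called, and with median-of-ratios scaling 8. NARS2 was called lower on TPM (limma adjusted p = 0.0478) and with median-of-ratios scaling (limma adjusted p = 0.0284). It was also called with a filter of at least 5 FPKM (limma adjusted p = 0.0431). The limma call of GAB2 was kept in every alternative, that of IFI44 was lost without si-circTMEM45A replicate 3 (adjusted p = 0.0535), and with no filter on low values. The calls of WWC1, DDIAS and IGFBP7 were also lost with no filter, and in 4, 5 and 4 of the 6 fits that left out a library: WWC1 when control replicate 1 or 3 or treated replicate 2 or 3 was out, IGFBP7 when control replicate 2 or 3 or treated replicate 1 or 2 was out, and DDIAS in every case but treated replicate 1.

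Promoter sequence from RefSeq (GRCh38.p14) was matched for 5 of the 6 members. The windows below are the 250 bases before the start listed first for the 2 genes that came from near absence and for TENM3, the most abundant teneurin; they are shown so that the 3 can be compared. Written 5′ to 3′, capitals mark matches on either strand to 5 motifs: TATAAA for the TATA box, GGGCGG for the GC box, CCAAT for the CCAAT box, TGANTCA for AP-1 and CANNTG for the E-box. Matches may overlap. TENM4 is at chr11:79441031-79441280 on the minus strand, ADGRL2 at chr1:81800126-81800375 on the plus strand and TENM3 at chr4:182143713-182143962 on the plus strand. Where the ADGRL2 and TENM3 windows, with the 50 bases after the start, reach GENCODE 29 exons of the gene, all 29 and 26 shared bases were equal; the TENM4 window shares none and was not checked this way.
TENM4: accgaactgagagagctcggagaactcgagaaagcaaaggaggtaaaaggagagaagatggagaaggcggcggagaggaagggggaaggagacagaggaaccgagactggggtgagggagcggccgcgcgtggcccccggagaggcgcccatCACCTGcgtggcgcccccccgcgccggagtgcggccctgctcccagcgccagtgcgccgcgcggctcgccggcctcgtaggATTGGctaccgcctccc
ADGRL2: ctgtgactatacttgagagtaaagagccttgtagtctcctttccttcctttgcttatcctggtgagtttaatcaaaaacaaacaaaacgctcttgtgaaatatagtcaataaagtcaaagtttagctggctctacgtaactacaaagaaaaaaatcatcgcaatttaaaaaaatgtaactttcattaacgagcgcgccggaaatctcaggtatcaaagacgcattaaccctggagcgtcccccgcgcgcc
TENM3: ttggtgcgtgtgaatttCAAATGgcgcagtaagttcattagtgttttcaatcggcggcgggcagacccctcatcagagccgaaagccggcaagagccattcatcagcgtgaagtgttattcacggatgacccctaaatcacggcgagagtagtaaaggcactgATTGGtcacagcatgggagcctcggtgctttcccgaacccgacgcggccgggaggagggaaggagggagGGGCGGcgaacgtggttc
The TENM4 window was rich in G and C (69.2%) and held 27 CpG dinucleotides, against a median of 58% and 11 over 35116 windows of the same length. The ADGRL2 window had 40.4% G and C and 12 CpG, and the TENM3 window 56.8% and 20. ADGRL2 has 8 listed starts, whose windows ranged from 34.8 to 70% G and C, and a gene-level value does not say which start was used. The TENM4 window held 1 match to CCAAT, found in 32.0% of all windows, and 1 to CANNTG, found in 61.8%. The first ADGRL2 window held no match to any of the 5 motifs, but this depends on the start taken. In listed order, ADGRL2 window 6 held 1 match each for the TATA box, the GC box and the E-box. ADGRL2 windows 3, 7 and 8 held 1 for the CCAAT box, windows 2, 3 and 5 held 1 for the E-box, and window 4 held none. The TENM3 window shown held 1 each to GGGCGG, found in 42.6% of windows, to CCAAT and to CANNTG. Neither TATAAA, in 10.7% of windows, nor TGANTCA, in 6.57%, was in any of the 3 windows shown. A match is a match of letters and not a shown binding site.

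The known partners of the family were followed as a list of 14 genes, of which 9 were in the table and 2 were tested, UNC5A and UNC5B. UNC5A and UNC5B are netrin receptors that also bind FLRT proteins. UNC5A had a mean FPKM of 10.98 ± 1.49 in control and 12.0 ± 1.47 in treated cells (SD, n = 3), and UNC5B had 8.28 ± 1.02 and 6.96 ± 0.548. Neither was called (limma adjusted p = 0.526 and 0.141), so 0 of 2 passed, with 1 at an unadjusted p under 0.05, against 18.8% of all genes. The FLRT proteins, which bind latrophilins directly, were below the filter. FLRT2 had 0.645 ± 0.0589 and 0.858 ± 0.0788 FPKM without overlap, FLRT3 had 2, 2 and 4 reads against 7, 9 and 8, and FLRT1 had 0.115 ± 0.0750 and 0.178 ± 0.0560 with overlap. Limma voom on recovered reads called FLRT2 higher (adjusted p = 0.00172) and UNC5B lower (adjusted p = 0.0284), 2 of 5 genes tested that way, against 20.5%. Without si-NC replicate 2, limma called UNC5B lower too (adjusted p = 0.0484). The fourth teneurin, TENM1, had 5 reads in the 3 si-NC libraries together and 0 with si-circTMEM45A. Neurexins, which latrophilins can also bind, were near 0, with 14 or fewer reads for NRXN2 or NRXN3 in either group.

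Of 28 other adhesion G protein-coupled receptors, 21 were in the table and 10 were tested. Of these 1 rose and 1 fell, near the 18.8% called among all genes, with a median log2 fold change of -0.0043. ADGRB2, a brain angiogenesis inhibitor family receptor, fell from 3.08 ± 0.202 to 1.93 ± 0.159 FPKM (SD, n = 3; limma adjusted p = 0.00819, log2 fold change -0.48 ± 0.08 SE), lower in all 3 libraries. ADGRE5 (CD97), a receptor for CD55, rose from 10.7 ± 0.7995 to 13.5 ± 0.938 FPKM (limma adjusted p = 0.0244), higher in all 3 libraries. It neighbours ADGRL1 on chromosome 19, and both had ratios near each other, 1.25 and 1.30. The receptors of highest level, ADGRG1 (GPR56; 35.4 ± 0.944 and 38.4 ± 1.15 FPKM), the planar polarity cadherin CELSR2 (24.6 ± 1.01 and 22.7 ± 0.804) and ADGRG6 (21.1 ± 0.393 and 22.5 ± 1.12), were not called. The limma call of ADGRE5 was lost when control replicate 1 or 2 or treated replicate 2 or 3 was out, and with no filter on low values (adjusted p 0.0715 to 0.0806), which left 1 receptor called, while that of ADGRB2 held in every alternative that tested it. Limma voom on recovered reads called 5 of 15 receptors, against 20.5% of genes: ADGRE5, ADGRG1 and CELSR3 higher and ADGRB2 and ADGRA2 lower. ADGRA2 had 1.89 ± 0.348 and 1.21 ± 0.0952 FPKM without overlap (limma adjusted p = 0.0587, limma voom adjusted p = 0.00181).

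Genes for G protein subunits, adenylyl cyclases and intracellular partners showed 5 that rose and 1 that fell of 19 tested, and limma voom called 5 higher and 3 lower of 21, against 18.8% and 20.5% called among all genes, with a median log2 fold change of 0.029. GNAQ, the alpha subunit that activates phospholipase C, fell from 22.7 ± 1.18 to 18.1 ± 0.569 FPKM (SD, n = 3; limma adjusted p = 0.00715). Its close relative GNA11 rose from 11.9 ± 0.459 to 14.7 ± 0.978 (limma adjusted p = 0.0163). The inhibitory subunit GNAI2 rose from 31.8 ± 0.808 to 36.8 ± 1.09 (limma adjusted p = 0.0131) and the cyclases ADCY6 and ADCY9, which make cyclic AMP, from 6.23 ± 0.184 to 7.49 ± 0.0951 (limma adjusted p = 0.0137) and from 6.67 ± 0.651 to 8.21 ± 0.329 (limma adjusted p = 0.0393). MBD1, a methyl-CpG binding protein reported to bind the intracellular part of teneurin-1, rose from 14.8 ± 0.0980 to 16.8 ± 0.358 (limma adjusted p = 0.0200). The groups did not overlap for 9 of the 19, against 39.2% of all tested genes. GNAS, the stimulatory subunit and the most abundant of the list, had 62.9 ± 3.19 and 57.9 ± 3.06 FPKM. It was not called by limma on log2(FPKM + 1), while limma voom called it lower (adjusted p = 0.0349). DDIT3 encodes CHOP, the stress transcription factor through which mouse Tenm4 was first found as an induced gene, and had 3.26 ± 0.469 and 4.19 ± 0.726 FPKM, with overlapping groups (limma adjusted p = 0.156). The calls of GNAQ and ADCY6 held in every alternative. That of GNAI2 was lost without si-circTMEM45A replicate 3 (limma adjusted p = 0.0503). GNA11 lost its call when control replicate 2 or treated replicate 2 or 3 was out and with no filter on low values (limma adjusted p = 0.0516). ADCY9 and MBD1 lost theirs in 5 of the 6 fits that left out a library, ADCY9 also with no filter (limma adjusted p = 0.117) and with median-of-ratios scaling (limma adjusted p = 0.0602). Without si-circTMEM45A replicate 3 the count of 6 became 2, and it was 3 without control replicate 2 or treated replicate 2.

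**Figure D4:**
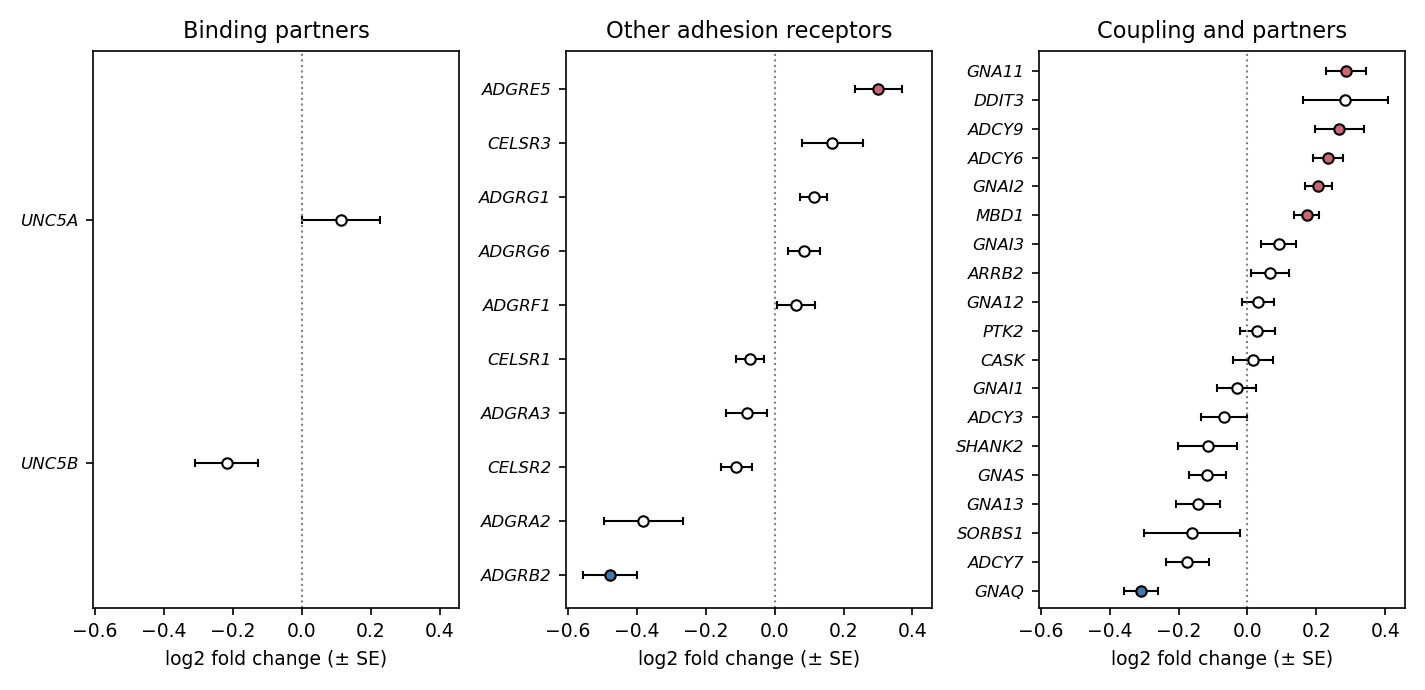
Log2 fold changes (limma on log2(FPKM + 1), points ± SE, n = 3 per group) of the tested binding partners, other adhesion receptors and coupling genes; red points were called higher with si-circTMEM45A, blue points lower, white points not called. On this scale the changes lay between -0.48 for ADGRB2 and 0.30 for ADGRE5. The pseudocount of 1 shrinks changes of genes at a few FPKM: with limma voom the log2 fold change of ADGRB2 was -0.67.

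Among tested genes, those whose log2(FPKM + 1) followed TENM4 most closely over the 6 libraries were CTIF, a translation initiation factor (r = 0.9987), the histone gene H2BC12 (r = 0.9975) and SDF2 (r = 0.9974). For ADGRL2 they were EHD1 of endocytic recycling, the phosphatase DUSP3 (both r = 0.9992) and the cadherin FAT4 (r = 0.9985). All were about 1.24 to 1.71 times higher with si-circTMEM45A; DUSP3, for example, went from 16.2 ± 0.502 to 27.1 ± 1.79 FPKM (SD, n = 3). A high r can arise for any gene that differs between the groups when 6 libraries fall into 2 groups. Of 12676 genes, 595 reached r above 0.95 with TENM4 and 577 with ADGRL2. Genes at the higher r values quoted were not counted.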

How the data were processed

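The authors deposited FPKM per Ensembl gene for 6 libraries, 3 per group, assigned from the sample titles. The submitters' processing notes list GRCh38 and the tools HTSeq, StringTie 2.1.6, TopHat2, HISAT2 2.2.1 and cutadapt 1.9, without saying what each did or which annotation was used. All 29816 gene IDs were in GENCODE 29, and 29593 had a symbol. FPKM times GENCODE 29 union exon length gave whole reads for 100% of values (tolerance 0.001), which gave the reads quoted.

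The test was limma 3.58.1 (R 4.3.3) with a variance trend on log2(FPKM + 1), two-sided, for genes reaching 1 FPKM in 3 or more libraries, with Benjamini-Hochberg adjustment over 12676 genes and a threshold of 0.05. It and limma voom were tested on simulated reads. Chi-square per degree of freedom between replicates of a group was 2.61 to 4.70, so no pair looked like 1 library deposited again; this does not show separate cultures. The members and lists were chosen with earlier results of these data known. Named genes were the 6 members, up to 6 called genes and the 3 of highest FPKM in each list, TMEM45A, and the 3 genes most correlated with TENM4 and with ADGRL2; FLRT1, FLRT2, FLRT3, TENM1, NRXN2, NRXN3, ADGRA2, CELSR3, DDIT3, NARS2 and IFI44L are named besides, as known partners or neighbours. Of the neighbours, 1 gene that the rule names is not reported here. Alternatives were another pseudocount, filter, scaling, voom, a fit blocked on replicate number, and fits without 1 library. Python 3.11.15 and scipy 1.17.1 were used.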

Additional observations from a re-analysis of the deposited data

How the results depend on the processing

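No called gene of the 4 lists changed sign in any alternative. The log2 difference of TENM2, which was not separated between groups, was 0.0007 and became -0.012 with median-of-ratios scaling. On TPM, with the same pseudocount, the differences of TENM4 and ADGRL2 were 0.92 and 1.06. Over all genes limma called 2380, and 1254 with no filter on low values; leaving out 1 library each gave 1341 to 1945. Leaving out 1 library gave 0 to 1 called binding partners, 1 to 2 adhesion receptors, 2 to 5 coupling genes and 2 to 5 neighbours. With no filter 1 adhesion receptor and 1 neighbour were called, and with FPKM of at least 5, 1 adhesion receptor. Limma voom on recovered reads called 2 binding partners, 5 adhesion receptors and 3428 genes in all. Of 56 tested list genes 13 were called, and 4 of these kept their call in every alternative. The cause of these changes was not tested, beyond fewer libraries or other genes in a fit. The titles number the libraries alike in both groups. Deviations of same-numbered libraries correlated at 0.026, 0.011 and 0.047. Libraries of unlike number in different groups correlated at -0.046 to 0.018. These values cannot settle whether same-numbered libraries are pairs. With a replicate block 1720 genes and 4 coupling genes were called, and ADCY9 and MBD1 were not (limma adjusted p = 0.0636 and 0.0529). Values of ADGRL3 and FLRT3, and the si-NC values of TENM4 and ADGRL2, rest on few reads.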

Other observations

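Some long genes besides the members were also higher with si-circTMEM45A, which was noticed in these data and is given as a description. Without the 6 members, 82 protein-coding genes with a mean of at least 5 reads per library span at least 600 kb. Of these, 54 had a higher and 28 a lower mean with si-circTMEM45A, 7 were at least 2-fold higher and 0 at least 2-fold lower, and the median log2 ratio was 0.12. Of the 10217 that span under 100 kb, 5764 had a higher and 4453 a lower mean. Among these, 129 were at least 2-fold higher and 85 at least 2-fold lower, with a median of 0.033. From 100 to 300 kb 1007 had a higher and 955 a lower mean, and from 300 to 600 kb 228 and 114. The median did not follow span throughout, being 0.0066 from 100 to 300 kb and 0.10 from 300 to 600 kb. The 7 of at least 600 kb were named after their values were seen. They were RYR2, a calcium release channel, NAALADL2, PCDH11X, MAPK10, the neural adhesion genes CADM2 and LSAMP, and the kinase CDK14. RYR2 had 5 reads with si-NC and 39 with si-circTMEM45A in all, so it met the read filter only because it was higher with si-circTMEM45A. PCDH11X, LSAMP and CADM2 were also low with si-NC, at a mean of 0.0220, 0.0231 and 0.0296 FPKM, so the same may hold for them. NAALADL2 had a mean FPKM of 0.0494 with si-NC and 0.245 with si-circTMEM45A, and CDK14 had 0.410 and 0.856. Other long genes were lower, among them DMD at 1.55 and 1.27 FPKM. With a mean under 0.5 FPKM, 103 of 1246 genes under 100 kb (8.27%) were at least 2-fold higher and 69 (5.54%) at least 2-fold lower. The shares were 11.9% higher and 4.21% lower from 100 to 300 kb, and 17% and 3.19% from 300 to 600 kb. At that level 36 genes span at least 600 kb, with TENM4, ADGRL2 and ADGRL3 included. Of these 36, 8 (22.2%) were at least 2-fold higher and 0 at least 2-fold lower. TENM4 and ADGRL2 are among the 8 and were picked for being higher, so that share is partly fixed by the choice. The part of low expression in these shares was not tested.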
